A study of Mus musculus with 24 samples.

Results

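The comparison described here sets cochleae of adrenalectomized (ADX) mice against cochleae of sham-operated mice, both taken at night without noise. It used 6 of the 24 libraries of the series: 3 of night sham exposure ADX and 3 of night sham exposure sham-operated, lettered a, b and c. They were chosen by their group labels and not by any measured value. All mice were CBA/Sca, aged 12 weeks, and the tissue was the whole cochlea. In an ADX mouse the adrenal glands had been removed, and in a sham-operated mouse surgery left them in place. Night sham exposure means that these mice took part in the night arm, at ZT15 (15 h after lights-on), without the noise of 6 to 12 kHz at 100 dB SPL that other mice received for 1 h. The series design gives collection 2 h after the noise, whereas the labels of these libraries give ZT23, and the sources used here do not settle which applies. The time between surgery and collection, and any hormone replacement, were not given in the sources used here. Whether each library stands for its own animal is not stated, so the p-values measure only the spread between these samples, which may be technical. Set beside this comparison are the day arm without noise (ZT3) and the night arm with noise (ZT15), each again with 3 ADX and 3 sham-operated libraries from mice of the same strain and age.

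Adrenal glands secrete glucocorticoid hormone in a daily rhythm which, in nocturnal mice, peaks around the start of the night. The hormone binds the glucocorticoid receptor, a transcription factor that switches on genes such as Fkbp5, Tsc22d3 and Per1 and restrains many inflammatory and interferon-responsive genes. The cochlea expresses the receptor and has a circadian clock of its own, and hormone acts on that clock in many tissues. Removing the whole gland takes away corticosterone, aldosterone and adrenaline together.

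The 6 libraries held 23569508 to 32600253 counts each. Their TMM scaling factors were 0.991 to 1.009, and the 10 most counted genes took 3.4% to 4.28% of a library. The cochlear genes Coch (cochlin of spiral ligament fibrocytes), Otos (otospiralin) and Myo7a (myosin of hair cells) were present in every library. Coch ran from 2995 to 4528 CPM (counts scaled to library size) in ADX libraries and from 4782 to 5348 CPM in sham-operated libraries. Myo7a ran from 40.6 to 44.0 CPM in ADX and from 48.1 to 58.5 CPM in sham-operated libraries. The libraries also held transcripts of bone marrow cells, with summed neutrophil and myeloid markers at 7669 to 9021 CPM in ADX and 8817 to 11318 CPM in sham-operated libraries. In such bulk samples, fewer cells of a type and less RNA per cell cannot be told apart.

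At night without noise 263 of 16607 tested genes, 1.58%, passed an adjusted p of 0.05 by edgeR's quasi-likelihood test with Benjamini-Hochberg adjustment; a gene past it is called here. Of these, 185 (1.11%) were higher and 78 (0.47%) lower in ADX cochleae. Most changes were small: the median size on the log2 scale was 0.53 among the higher and 0.55 among the lower genes, and 20 higher and 16 lower genes passed a 2-fold change. For each of the 263 genes the 3 ADX libraries lay wholly above or wholly below the 3 sham-operated ones. The genes were picked by a test on these same libraries, so this separation adds no support. The median log2 change of all tested genes was -0.00097, with 8266 positive and 8341 negative. Of these genes 2478 had an unadjusted p under 0.05 by edgeR. DESeq2 called 599 of 15315 genes (376 higher and 223 lower) and limma voom 1242 of 16607 (657 higher and 585 lower). The lists with 3 or more called members were glucocorticoid-induced genes (10 of 33, lower), heat-shock genes (3 of 16, lower), B-cell markers (12 of 22, higher), interferon-stimulated genes (7 of 22, higher) and collagen genes (5 of 22, higher).

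**Figure D1:**
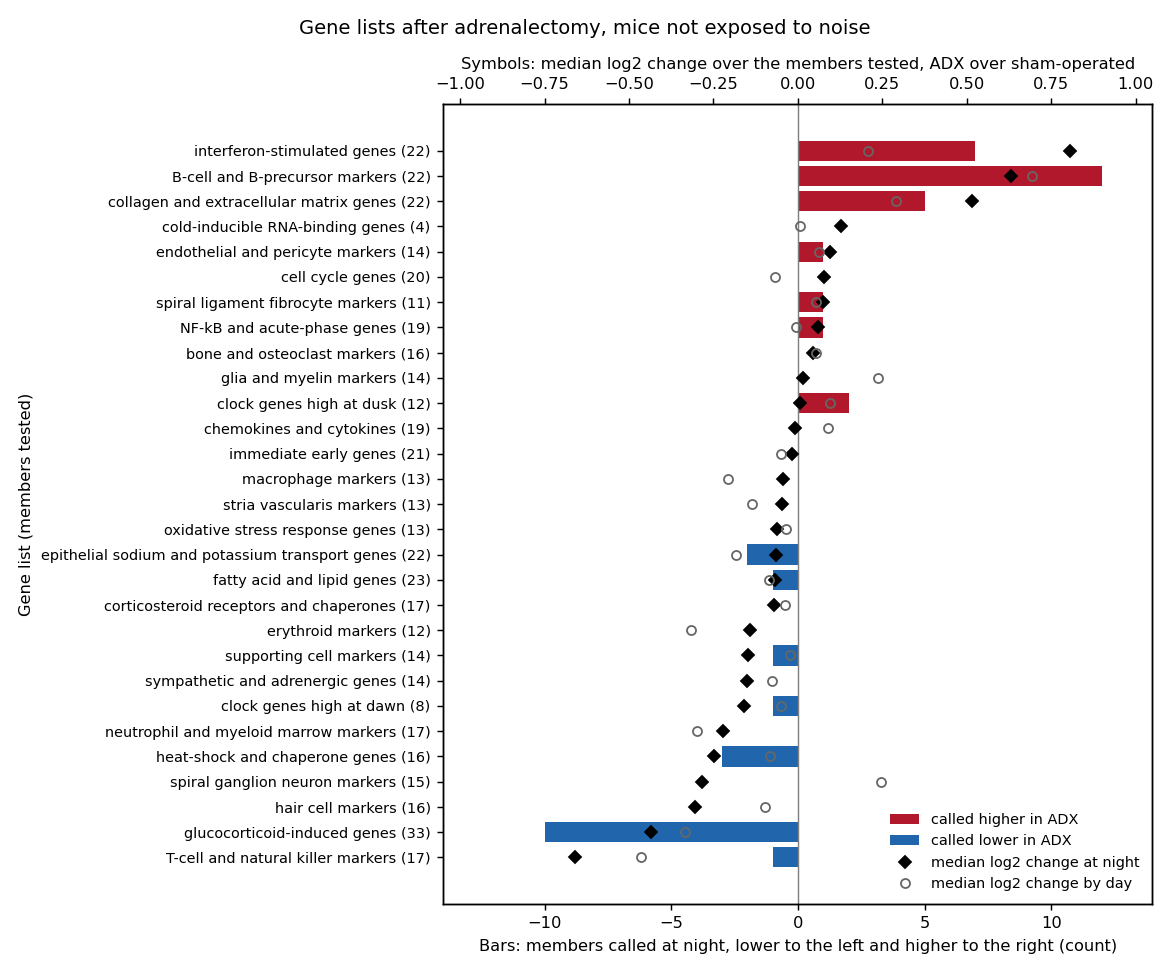
Bars give the number of called members of each gene list (bottom axis, lower in ADX to the left, higher to the right), and symbols the median log2 change over all tested members (top axis) at night (diamonds) and by day (circles). The longest bars are the 12 B-cell markers and 7 interferon-stimulated genes that were higher and the 10 glucocorticoid-induced genes that were lower in ADX cochleae at night; muscle, pituitary and cerebellar markers, none called, are left out.

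Targets of the glucocorticoid receptor held the most lower calls of any list. Of 33 tested glucocorticoid-induced genes 10 were called lower and 0 higher, where 0.47% of all genes were called lower. The median log2 change over the 33 genes was -0.43, and 31 of them had a negative value. Summed over the list, ADX libraries a, b and c held 2955, 3439 and 3112 CPM, and sham-operated libraries a, b and c held 4245, 4281 and 4666 CPM. The sums of the groups did not overlap. That alone is no test, since it also held for the corticosteroid receptor and pituitary lists, each with 0 called genes. For heat-shock genes the sums overlapped. DESeq2 called 14 and limma voom 17 of the 33 genes lower.

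Fkbp5, a co-chaperone that damps the glucocorticoid receptor (chromosome 17, 28399094 to 28517527), measured 27.5, 43.9 and 32.0 CPM in ADX libraries and 105, 78.9 and 104 CPM in sham-operated libraries. Every ADX value was below every sham-operated value, and Fkbp5 fell 2.8-fold (log2 change -1.48, SE 0.32, edgeR adjusted p = 0.0267). Tsc22d3, which encodes the anti-inflammatory protein GILZ (chromosome X, 140539528 to 140600659), measured 85.2, 99.4 and 81.3 CPM in ADX libraries, against 147, 154 and 181 CPM in sham-operated libraries. Its log2 change was -0.86 (SE 0.18, edgeR adjusted p = 0.0245). Zbtb16, a transcription factor also called PLZF (chromosome 9, 48654297 to 48836222), measured 17.7, 35.4 and 16.3 CPM in ADX and 77.8, 67.1 and 85.0 CPM in sham-operated libraries. ADX library b lay about midway on the log scale, and the change of -1.74 (SE 0.43) passed narrowly, with an edgeR adjusted p of 0.0499.

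Hif3a, an inhibitory member of the hypoxia-inducible factors (chromosome 7, 17031507 to 17062427), had the largest fall of all called genes. It measured 1.34, 1.75 and 1.32 CPM in ADX libraries and 8.02, 6.99 and 8.89 CPM in sham-operated libraries, 5.43-fold lower (log2 change -2.44, SE 0.56, edgeR adjusted p = 0.0339). Plin4, a protein of the lipid droplet coat, measured 10.9, 23.7 and 9.39 CPM in ADX and 44.1, 44.8 and 47.4 CPM in sham-operated libraries (log2 change -1.65). Sult1a1, a sulfotransferase of phenols and drugs, fell by 1.46 on the log2 scale, Map3k6, a stress kinase, by 1.08, and Mt2, a metal-binding metallothionein, by 0.80. Arrdc2, an arrestin-domain protein, fell by 0.71 and Glul, glutamine synthetase, by 0.68, with Glul at 791, 1085 and 833 CPM in ADX libraries against 1328, 1419 and 1603 CPM in sham-operated libraries. In all 10 genes ADX library b was the highest of the ADX libraries.

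Several well-known targets did not pass the edgeR test. Sgk1, a kinase that regulates sodium channels, measured 114, 118 and 113 CPM in ADX and 148, 158 and 170 CPM in sham-operated libraries, with a log2 change of -0.47 (SE 0.12, edgeR adjusted p = 0.0614). In the 7 other settings that kept all 6 libraries, Sgk1 passed in 5, with adjusted p from 0.00695 to 0.0715. Per1 passed in 3 of these 7, from 0.0148 to 0.185. With 1 library left out in turn, Sgk1 passed in 0 of 6 edgeR fits (adjusted p from 0.0744 to 0.239). In the same fits Per1 passed in 0 of 6 (from 0.128 to 0.394). This does not set them apart from called genes, of which 66 of 263 also passed in 0 of 6. Hif3a (from 0.0689 to 0.175) and Arrdc2 (from 0.0588 to 0.195) were among these 66, while Tsc22d3 passed in 2. Per1 had a change of -0.72 (SE 0.24, adjusted p = 0.13), Klf9 one of -0.63 (adjusted p = 0.0766), Ddit4 one of -0.62 (adjusted p = 0.196) and Dusp1 one of -0.36 (adjusted p = 0.494), all by edgeR. Klf9, Ddit4 and Dusp1 were chosen with their values known. For each of the 5 genes Sgk1, Per1, Klf9, Ddit4 and Dusp1 the groups did not overlap. With 3 libraries a side this is no test, and its share over all tested genes was not counted. Nedd9 (0.14) and Cdkn1a (0.06) were the listed genes with a positive value.

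**Figure D2:**
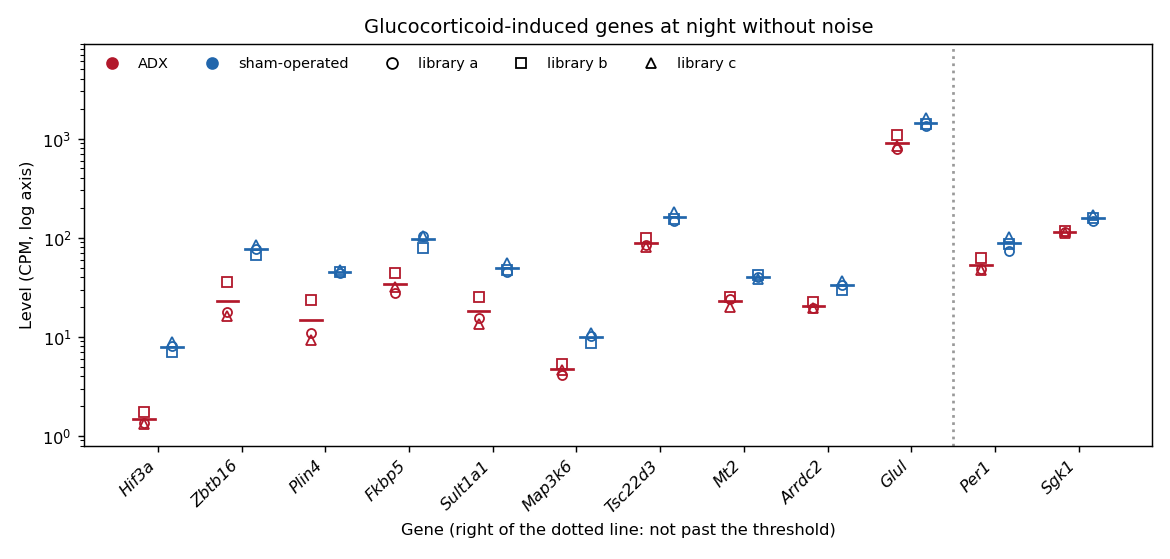
Levels in CPM (log axis) of the 10 called glucocorticoid-induced genes and of Per1 and Sgk1, which did not pass, in the ADX (red, left of each pair) and sham-operated (blue) libraries; horizontal lines are group means. All ADX values lie below all sham-operated values, and ADX library b (square) is the highest ADX library for each called gene.

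The receptor binds a pair of inverted half-sites, and the promoters were read for GNACA and TGTNC separated by 3 bases, on both strands (the motif reads the same on each). RefSeq promoters of GRCm38.p6, from 250 bases before to 50 bases after each gene start, held this motif in 0.475% of 32851 windows. Counted per gene, 0.537% of 27025 genes held it. Of 28 listed glucocorticoid-induced genes with a promoter entry 4 held it (Map3k6, Mt1, Sgk1 and Txnip), and Map3k6 was the 1 of 9 called genes with an entry. The bases before the start are printed for the called gene Map3k6 (chr4:133240568-133240817, + strand), with the match in capitals beginning 181 bases before the start, and for Sgk1 (chr10:21993640-21993889, + strand), with the match 188 bases before it. A match describes letters in this window and is no evidence of binding.
Map3k6: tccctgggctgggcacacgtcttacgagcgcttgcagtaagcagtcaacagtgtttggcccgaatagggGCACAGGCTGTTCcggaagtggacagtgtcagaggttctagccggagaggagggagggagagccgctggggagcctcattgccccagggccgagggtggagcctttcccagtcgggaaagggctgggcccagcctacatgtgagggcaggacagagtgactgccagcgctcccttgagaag
Sgk1: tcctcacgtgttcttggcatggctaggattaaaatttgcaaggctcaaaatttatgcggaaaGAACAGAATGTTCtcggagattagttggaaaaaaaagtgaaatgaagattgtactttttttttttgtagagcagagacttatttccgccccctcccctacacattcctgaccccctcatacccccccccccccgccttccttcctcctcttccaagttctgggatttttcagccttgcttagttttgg

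The receptors themselves showed no called change. Of 17 tested genes of corticosteroid receptors, local steroid metabolism and receptor chaperones 0 were called by edgeR, 4 had an unadjusted p under 0.05, and 0 were called by DESeq2 and by limma voom. Among all 16607 tested genes 2478 had an unadjusted p under 0.05 by edgeR. Nr3c1, the glucocorticoid receptor, measured 145, 135 and 155 CPM in ADX and 126, 128 and 136 CPM in sham-operated libraries, and these ranges overlapped (log2 change 0.16, SE 0.07, edgeR adjusted p = 0.294). Nr3c2, the mineralocorticoid receptor, had a change of 0.28 (SE 0.14, edgeR adjusted p = 0.342). Hsd11b1, which regenerates active hormone inside cells, had one of -0.12 (SE 0.14, edgeR adjusted p = 0.768); it overlaps Lamb3 on the opposite strand.

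Of the clock genes 2 rose and 1 fell, where 1.11% of all genes were called higher and 0.47% lower. In the clock loop the activators ARNTL and CLOCK drive Per, Cry, Nr1d1 and Dbp, and the products of Per and Cry repress the activators, while NR1D1 represses Arntl. Nr1d1, which encodes the repressor REV-ERBα (chromosome 11, 98767932 to 98775333), measured 51.6, 39.5 and 46.2 CPM in ADX libraries against 22.0, 25 and 22.7 CPM in sham-operated libraries, and rose 1.97-fold (log2 change 0.98, SE 0.15, edgeR adjusted p = 0.0108). Dbp, an output transcription factor of the clock, measured 50.3, 36.2 and 43.2 CPM in ADX and 23.8, 28.6 and 24.4 CPM in sham-operated libraries, and rose by 0.76 (SE 0.16, edgeR adjusted p = 0.0267). Cry1, a repressor, measured 27.6, 25.2 and 23.8 CPM in ADX and 37.1, 33.1 and 38.5 CPM in sham-operated libraries, and fell by 0.50 on the log2 scale (SE 0.11, edgeR adjusted p = 0.027). The groups did not overlap for any of the 3, as for every called gene.

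The remaining clock genes did not pass by edgeR: 10 of 12 genes that are high at dusk and 7 of 8 that are high at dawn. DESeq2 called 2 dusk genes higher and 2 dawn genes lower, and limma voom called 2 dusk genes higher, 4 dusk genes lower and 3 dawn genes lower. Per2 measured 67.6, 79.4 and 64.9 CPM in ADX and 98.6, 101 and 128 CPM in sham-operated libraries, with a change of -0.63 (SE 0.23, edgeR adjusted p = 0.192). Arntl had a change of -0.13 (SE 0.12, edgeR adjusted p = 0.661), and its groups overlapped. Nr1d1 shares 1075 bases with Thra on the opposite strand, and Thra had a change of 0.23 (edgeR adjusted p = 0.0995). Dbp shares 737 bases with Sphk2, whose change was -0.043 (edgeR adjusted p = 0.807). Whether the counting used strand is not given in the sources used here, so reads of such a gene and its partner may not have been told apart.

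The effect of adrenalectomy on Nr1d1 differed between night and day. Without noise by day, Nr1d1 measured 83.5, 85.9 and 90.9 CPM in ADX libraries and 143, 123 and 129 CPM in sham-operated libraries, a change of -0.60 (edgeR adjusted p = 0.101). The difference of the log2 changes, night minus day, was 1.58 (edgeR adjusted p = 0.0047). Nr1d1 was the 1 gene of 16607 (0.00602%) whose difference passed, with 1042 genes at an unadjusted p under 0.05, 11 called by DESeq2 and 72 by limma voom. The group means of Nr1d1 were 45.8 CPM in night ADX and 23.2 CPM in night sham-operated libraries, and 86.8 CPM in day ADX and 131.5 CPM in day sham-operated libraries, so night and day lay closer together in ADX cochleae. Per3, a period gene, was called by day (0.83) and had a change of 0.29 at night (edgeR adjusted p = 0.31), and the difference for Per3 did not pass.

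**Figure D3:**
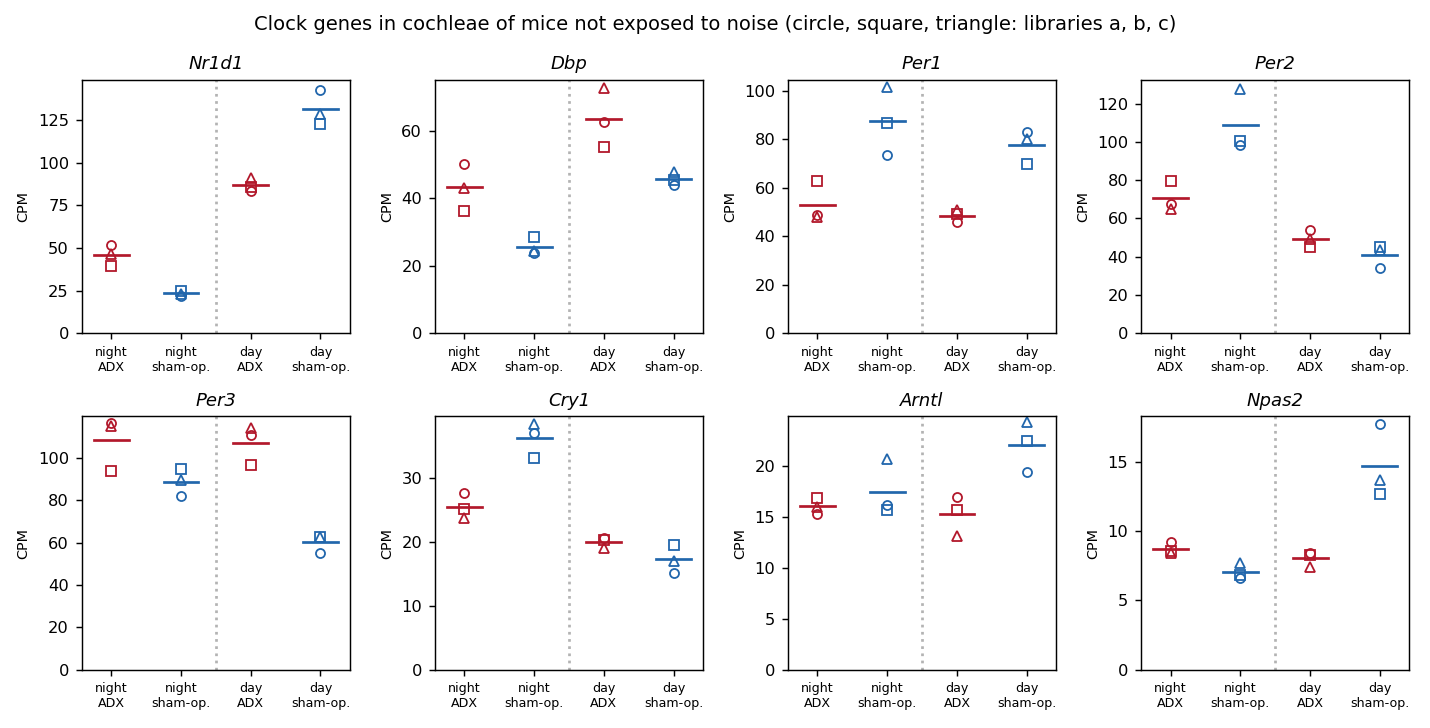
Levels in CPM of 8 clock genes in night ADX, night sham-operated, day ADX and day sham-operated libraries, none exposed to noise; lines are group means. For Nr1d1 the ADX libraries lie above the sham-operated ones at night and below them by day.

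Markers of B cells and their precursors were the list with the most called members. Of 22 tested genes 12 rose and 0 fell, where 1.11% of all genes were called higher, and the median log2 change was 0.63. The summed markers gave 1629, 1410 and 1786 CPM in ADX libraries and 1026, 974 and 918 CPM in sham-operated libraries. These sums did not overlap, which was also so for some lists with 0 called genes and is no test. Rag1, a subunit of the recombinase that assembles antigen receptor genes (chromosome 2, 101638282 to 101649501), measured 112, 98.6 and 153 CPM in ADX and 49.9, 57.4 and 49.6 CPM in sham-operated libraries (log2 change 1.21, SE 0.19, edgeR adjusted p = 0.0108). Rag2, its partner, rose by 0.94, and shares 7812 bases with B230118H07Rik on the opposite strand, whose change was 0.24 (edgeR adjusted p = 0.341). Vpreb3, a gene of B-cell precursors, measured 75.7, 71.5 and 91.6 CPM in ADX libraries against 42.6, 43.5 and 43.4 CPM in sham-operated libraries (log2 change 0.88, SE 0.15, edgeR adjusted p = 0.0118).

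Signalling parts of the B-cell receptor rose too: Blnk, its adaptor, by 0.84, Blk, a kinase, by 0.77, Cd79b by 0.77 and Cd79a by 0.64. The lineage factors Spib, Pou2af1 and Pax5 rose by 0.88, 0.86 and 0.79, and Il7r, the interleukin 7 receptor, by 0.60. The listed genes that did not pass ran from -0.03 for Fcer2a to 0.62 for Ly6d. ADX library c was the highest of the ADX libraries for all 12 called genes. The genes Irf4 (1.02), Bach2 (1.00), Fcrla (1.09) and Cd72 (0.86), all active in B cells, were also called higher; they are in no list and were chosen after their values were seen.

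Among T-cell and natural killer markers Cd3e fell. Cd3e, a chain of the T-cell receptor complex, measured 0.730, 0.983 and 0.467 CPM in ADX and 4.26, 2.90 and 3.41 CPM in sham-operated libraries, 4.85-fold lower (log2 change -2.28, SE 0.46, edgeR adjusted p = 0.0209). It was the 1 gene of 17 called by edgeR, where 0.47% of all genes were called lower. The median of the list was -0.66 with 15 negative values. Of the 17 genes 10 had an unadjusted p under 0.05 by edgeR, DESeq2 called 5 lower, and limma voom called 7 lower and 1 higher. Over all tested genes 2478 of 16607 had such a p, DESeq2 called 223 of 15315 lower and limma voom 585 of 16607. Cd8b1 (-2.11, adjusted p = 0.0967) and Cd8a (-2.03, adjusted p = 0.098), chains of the co-receptor of cytotoxic T cells, did not pass by edgeR. The summed T-cell markers were 84.7, 85.2 and 82.5 CPM in ADX and 129, 106 and 100 CPM in sham-operated libraries. Neutrophil and myeloid markers had a median of -0.22 with 17 of 17 values negative, but 0 were called by edgeR (5 at an unadjusted p under 0.05, 2 called by DESeq2, 1 by limma voom). How far the number of marrow cells in each cochlea enters these lists was not tested.

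Of 22 tested interferon-stimulated genes 7 rose and 0 fell by edgeR, where 1.11% of all genes were called higher, and DESeq2 called 19 and limma voom 17 of them higher. The median log2 change was 0.81, and 22 of 22 values were positive. Oasl2, of the antiviral oligoadenylate synthetase-like family (chromosome 5, 114896936 to 114912234), measured 29.3, 69.8 and 36.1 CPM in ADX libraries and 18.7, 18.0 and 20.4 CPM in sham-operated libraries (log2 change 1.24, SE 0.24, edgeR adjusted p = 0.019). Ifi44 measured 9.73, 17.1 and 9.08 CPM in ADX and 5.70, 5.52 and 4.41 CPM in sham-operated libraries (log2 change 1.19, SE 0.25, edgeR adjusted p = 0.0222). As for every called gene, the groups did not overlap for either, and ADX library b stood well above a and c.

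Gbp3, a guanylate-binding protein of host defence, was more even, at 25.4, 26.4 and 24.4 CPM in ADX and 13.4, 14 and 14.7 CPM in sham-operated libraries (log2 change 0.85, SE 0.16, edgeR adjusted p = 0.015). Members of the Gbp family are near-identical in places, so counts of Gbp3, and of Gbp10 (1.24) and Gbp11 (1.15), both also called higher, are uncertain. Mx2, an antiviral GTPase, rose by 1.00, Usp18, which removes ISG15 from proteins, by 0.86, Bst2, the membrane tether tetherin, by 0.62, and Stat2, a transcription factor of the interferon pathway, by 0.37. ADX library b was the highest ADX library for all 7 called genes. Ifit1 showed the spread most plainly among those not called, at 17.7, 51.6 and 16.6 CPM in ADX and 10.2, 11.3 and 11.1 CPM in sham-operated libraries (log2 change 1.39, SE 0.39, edgeR adjusted p = 0.0823). The summed list gave 641, 925 and 661 CPM in ADX libraries and 543, 498 and 467 CPM in sham-operated libraries. The RNA sensors Ifih1 (0.49), Ddx58 (0.42) and Dhx58 (0.84), chosen after their values were seen, were also called higher.

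Promoters were read for the core of the interferon response motif, GAAA and GAAA separated by 2 bases, on both strands. It occurred in 3.44% of the 32851 RefSeq promoter windows and, counted per gene, in 3.99% of 27025 genes. Of 15 listed interferon-stimulated genes with an entry 9 held it (Bst2, Gbp2, Gbp3, Ifit1, Ifit3, Isg15, Oas1a, Rsad2 and Stat2). Of the 7 called genes 5 had an entry and 3 held the motif. Those 3 are printed from 250 bases before the gene start up to the start, with matches in capitals and overlapping matches joined; on the reverse strand the match reads as TTTC and TTTC. Bst2 (chr8:71537473-71537722, - strand) held 2 matches, the first 130 bases before the start. Gbp3 (chr3:142559794-142560043, + strand) held 2, the first 45 bases before it, and Stat2 (chr10:128270248-128270497, + strand) held 1, 222 bases before it.
Bst2: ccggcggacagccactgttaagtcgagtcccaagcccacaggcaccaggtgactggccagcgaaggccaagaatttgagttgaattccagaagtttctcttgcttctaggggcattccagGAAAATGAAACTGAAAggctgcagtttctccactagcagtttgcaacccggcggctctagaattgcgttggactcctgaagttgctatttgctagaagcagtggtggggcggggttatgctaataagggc
Gbp3: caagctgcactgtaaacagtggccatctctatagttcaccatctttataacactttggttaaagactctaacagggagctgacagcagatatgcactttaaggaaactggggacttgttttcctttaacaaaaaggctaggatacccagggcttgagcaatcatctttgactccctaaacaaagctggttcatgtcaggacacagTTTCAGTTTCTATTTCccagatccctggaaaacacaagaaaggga
Stat2: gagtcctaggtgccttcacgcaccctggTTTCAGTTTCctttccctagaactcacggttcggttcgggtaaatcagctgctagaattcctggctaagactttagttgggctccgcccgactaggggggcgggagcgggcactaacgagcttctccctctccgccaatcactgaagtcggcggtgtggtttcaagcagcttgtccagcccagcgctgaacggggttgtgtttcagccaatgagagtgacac

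Of 22 tested collagen and matrix genes 5 rose and 0 fell, where 1.11% of all genes were called higher, with a median of 0.51 and 20 positive values. DESeq2 and limma voom each called 12 of them higher, and edgeR 14 with only the compared groups in the fit. Col2a1, the main collagen of cartilage, also found in the tectorial membrane and otic capsule (chromosome 15, 97975602 to 98004695), measured 779, 455 and 757 CPM in ADX and 277, 320 and 234 CPM in sham-operated libraries (log2 change 1.26, SE 0.26, edgeR adjusted p = 0.0232). Col11a2, a cartilage and tectorial membrane collagen, measured 1865, 1501 and 1715 CPM in ADX libraries against 1104, 1241 and 1040 CPM in sham-operated libraries (log2 change 0.59). Fbn1, fibrillin of microfibrils, rose by 0.58, and Col4a1 and Col4a2, the chains of basement membrane collagen, by 0.49 and 0.51. ADX library b was the lowest ADX library for all 5 called genes, and, as for every called gene, the groups did not overlap for any of the 5. The gene pair Col4a1 and Col4a2 lies head to head, and its annotations share 22 bases. Fn1, fibronectin, had a change of -0.01 and Lox, which cross-links collagen, one of -0.14.

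**Figure D4:**
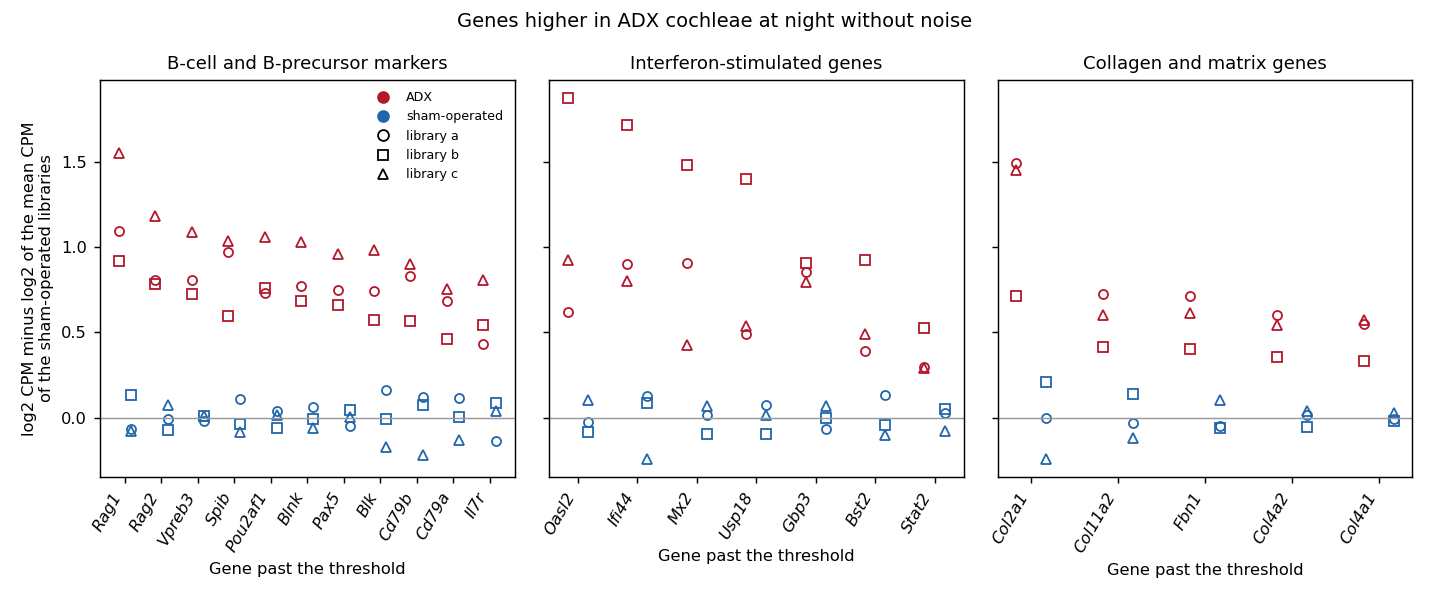
Each point is the log2 CPM of a library minus the log2 of the mean CPM of the sham-operated libraries, for 11 of the 12 called B-cell markers and for the called interferon-stimulated and collagen genes; ADX (red) stands left of sham-operated (blue). ADX library b (square) is the highest ADX library for the 7 interferon-stimulated genes and the lowest for the 5 collagen genes.

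Of 16 tested heat-shock and chaperone genes 3 fell and 0 rose, where 0.47% of all genes were called lower, with a median of -0.25 and 15 negative values. Hspa4l, an exchange factor for HSP70, measured 167, 188 and 169 CPM in ADX and 236, 240 and 257 CPM in sham-operated libraries (log2 change -0.48, SE 0.10, edgeR adjusted p = 0.0178). Hspb8, a small heat-shock protein, fell by 0.48 and Dnajb9, a co-chaperone of the endoplasmic reticulum, by 0.37. Hspb1 (-0.82, adjusted p = 0.0777) and Hspa1b (-1.13, adjusted p = 0.27) did not pass by edgeR, and for Hspa1b, which has a near-identical copy and is uncertain, the groups overlapped.

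Of 22 epithelial sodium and potassium transport genes 2 fell and 0 rose by edgeR, where 0.47% of all genes were called lower, and DESeq2 and limma voom each called 4 lower. Fxyd2, a regulatory subunit of the sodium pump, measured 3.10, 3.72 and 2.84 CPM in ADX libraries and 6.54, 15.5 and 7.33 CPM in sham-operated libraries, where b was far above a and c (log2 change -1.61, SE 0.38, edgeR adjusted p = 0.0383). Scnn1a, a subunit of the epithelial sodium channel, had a change of -0.53 (edgeR adjusted p = 0.0829), and the potassium channel gene Kcnq1 one of 0.07 (edgeR adjusted p = 0.768).

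The cochlear cell marker lists held at most 1 gene each called by edgeR, where 0.47% of all genes were called lower and 1.11% higher. Tectb, β-tectorin of the tectorial membrane, measured 5.23, 5 and 5.84 CPM in ADX and 14.3, 13.2 and 8.96 CPM in sham-operated libraries (log2 change -1.18, SE 0.29, edgeR adjusted p = 0.0451), the 1 called gene of 14 supporting cell markers. Car3, a carbonic anhydrase, rose by 0.75, 1 of 11 markers of spiral ligament fibrocytes. Pdgfrb, a receptor of pericytes, rose by 0.31, 1 of 14 endothelial and pericyte markers, and Nfkbie, an inhibitor of NF-kB, by 0.44, 1 of 19 NF-kB and acute-phase genes. The hair cell list had a median of -0.30 and the spiral ganglion neuron list one of -0.28, with 15 of 16 and 15 of 15 negative values and 0 called by edgeR in each. Of these, 6 and 7 genes had an unadjusted p under 0.05, and DESeq2 called 2 and 1 and limma voom 2 and 3 of them lower. Bone and osteoclast markers had 8 positive and 8 negative values, and 0 of 16 were called by edgeR. Of these 16 genes 11 had an unadjusted p under 0.05 by edgeR. DESeq2 called 6 higher and 1 lower, and limma voom 7 higher and 1 lower. Among 23 fatty acid and lipid genes 1, Plin4, fell. In all, 18 of the 32 lists had 0 genes called by edgeR. Their 256 tested entries held 52 with an unadjusted p under 0.05, and DESeq2 called 14 and limma voom 18 of them. Over all tested genes 2478 of 16607 had an unadjusted p under 0.05, DESeq2 called 599 of 15315 and limma voom 1242 of 16607.

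Among other called genes with large changes, Nccrp1, an F-box-associated protein, measured 0.638, 1.15 and 0.818 CPM in ADX and 3.17, 4.71 and 2.78 CPM in sham-operated libraries (log2 change -2.04). Lipg, endothelial lipase, fell by 1.56, Clec4d, a lectin receptor of myeloid cells, by 1.25, Hrk, an activator of apoptosis, by 1.22, and Bcl11b, a transcription factor of T cells and neurons, by 1.22. On the higher side stood the unnamed transcripts 9030619P08Rik (1.52) and BC094916 (1.26), Cyp4f14, a fatty acid hydroxylase (1.44), Cpz, a secreted carboxypeptidase (1.39), Sstr1, a somatostatin receptor (1.38), Col26a1, a collagen (1.19), and Panx3, a pannexin of bone and cartilage (1.16). Panx3 measured 28.1, 21.8 and 26.3 CPM in ADX libraries against 11.2, 12.7 and 10.3 CPM in sham-operated libraries. Mmp3, stromelysin, had the largest called rise (1.91, SE 0.44, edgeR adjusted p = 0.0317), from levels of 1.37, 0.812 and 0.584 CPM in ADX and 0.281, 0.116 and 0.333 CPM in sham-operated libraries. It was named after its values were seen.

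The same contrast was run in libraries not used at night without noise, so no library is shared. By day without noise 7 of 16607 genes (0.0422%) were called, 4 higher and 3 lower, among them Rag2 (1.10), Per3 (0.83) and Lef1 (0.64) higher and Pkp1 (-1.20) and Rnf149 (-0.45) lower. DESeq2 called 179 and limma voom 112, and leaving out 1 of the 6 day libraries gave 0 to 30 by edgeR, the highest without sham-operated library b. Summed cerebellar markers were 340 CPM in that library, against 187 and 172 CPM in day sham-operated libraries a and c. Without the 3 libraries holding pituitary or cerebellar transcripts, this one among them, edgeR called 73 genes by day and 400 at night. The relation of these transcripts to the calls was not tested. Of the 7 day calls of the main fit, 3 were also called at night, Lef1 and Rag2 among them, 42.9% of the day calls and 1.14% of the night calls. Of the 185 genes higher at night 179 (96.8%) had a positive value by day, against 50.5% of all tested genes, and their median change was 0.53 at night and 0.30 by day. Of the 78 lower at night 65 (83.3%) had a negative value by day, against 49.5% of all tested genes, with medians of -0.55 at night and -0.27 by day. Both sets were picked for passing at night, which favours larger night values, so these medians do not show a weaker effect by day. Glucocorticoid-induced genes had a median of -0.43 at night and -0.33 by day, B-cell markers 0.63 and 0.69, interferon-stimulated genes 0.81 and 0.21, and collagen genes 0.51 and 0.29. No gene other than Nr1d1 passed the edgeR test of the difference, so the lists are not shown to differ between night and day.

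**Figure D5:**
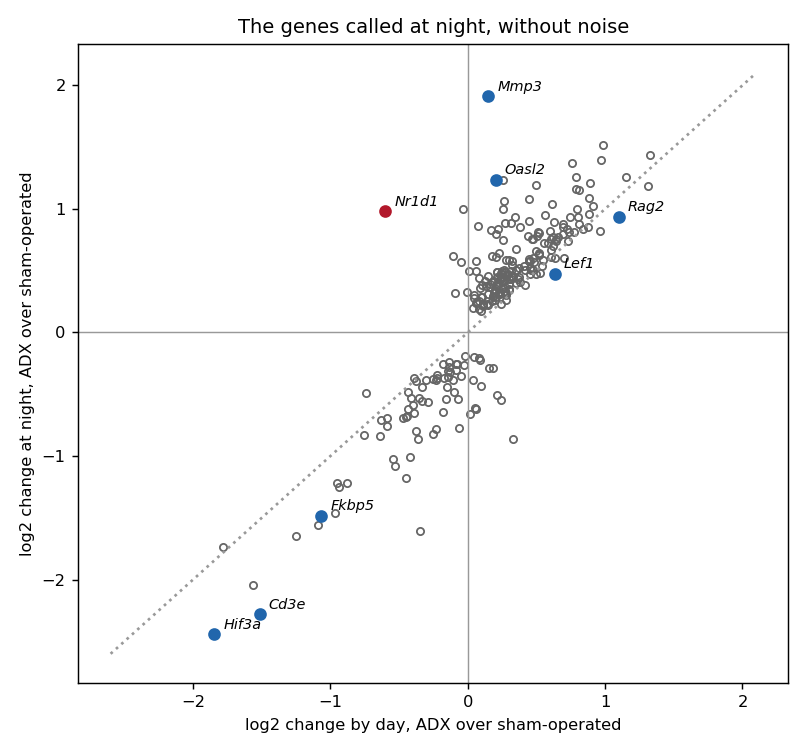
The log2 change at night (vertical) against the log2 change by day (horizontal), ADX over sham-operated without noise, for the 263 genes called at night; the dotted line marks equal changes. Nr1d1 (red) lies above the horizontal zero line and left of the vertical one, while Fkbp5, Hif3a, Cd3e, Rag2 and Lef1 have the same sign at both times.

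In night noise libraries the contrast of ADX with sham-operated called 0 genes (0%) by edgeR, with 1420 at an unadjusted p under 0.05, 15 called by DESeq2 and 1 by limma voom. That contrast includes ADX library a of the noise group, whose summed pituitary markers were 10399 CPM against 121 to 143 CPM in the ADX libraries without noise; left out, it gave 162 called genes, and their relation to those transcripts was not tested. Of the genes higher without noise 169 of 185 (91.4%) had a positive value after noise, and of the lower ones 69 of 78 (88.5%) a negative one, against 50% of all tested genes for each sign. Glucocorticoid-induced genes had a median of -0.43 without noise and -0.42 after noise, and B-cell markers 0.63 and 0.19. The test of the difference, sham exposure minus noise, called 0 genes (0%) by edgeR, with 1056 at an unadjusted p under 0.05, 4 by DESeq2 and 0 by limma voom.

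The number of calls changed when single libraries were left out. Left out in turn, ADX library a, b or c gave 61, 196 or 0 called genes, and sham-operated library a, b or c gave 143, 1 or 0. In these edgeR fits 1746 to 2584 genes had an unadjusted p under 0.05. How far the smaller group alone lowers the count was not tested. Since the groups of every called gene are fully separated, leaving out 1 library could not turn a direction. Of the 263 genes 66 passed in none of them, 40 in 3, and Serinc5 in 4. The 10 glucocorticoid-induced genes became 0, 8 and 0 without ADX a, b and c and 1, 0 and 0 without sham-operated a, b and c. The 12 B-cell markers became 6, 12 (11 of them shared) and 0 and then 11, 0 and 0 in the same order, and the 7 interferon-stimulated genes 6, 2 and 0 and then 4, 0 and 0. The 5 collagen genes became 0, 5 and 0 without the ADX libraries and 0, 0 and 0 without the sham-operated ones. Without ADX library c the edgeR adjusted p of Fkbp5 was 0.155 and that of Hif3a 0.175, and without sham-operated library c that of Nr1d1 was 0.0741 and that of Rag1 0.0845.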

How the data were processed

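RNA of whole cochleae was sequenced in 24 libraries of 8 groups of 3. The deposited table holds raw read counts per gene symbol for 23420 entries, made by the authors; TopHat2 2.0.11, HTSeq 0.6p1 and the mm10 build are named per the submitters' processing notes. The annotation and strand setting of the counting are not given in the sources used here. Of the entries 3340 were 0 in every library and 27 had symbols turned into dates.

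Counts were tested with edgeR 4.0.16 (R 4.3.3) by a robust quasi-likelihood F-test, after filterByExpr on the 8 groups left 16607 genes and with TMM scaling. The fit had 1 coefficient per group over all 24 libraries, so the spread is shared, with a Benjamini-Hochberg threshold of 0.05 across every gene tested. The standard error is the log2 change divided by the root of F, and CPM use TMM-scaled totals. Differences of effects were contrasts of contrasts in the same fit. Alternatives were limma 3.58.1 (voom with library weights), DESeq2 1.42.0, its size factors, no filter, a replicate block, a fit of only the groups compared, and each library left out. A fit without 3 libraries holding pituitary or cerebellar transcripts was added after seeing the data. Positions are those of GRCm38, matched by symbol, and promoters are RefSeq's.

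The comparison, gene lists and genes were chosen with earlier results of these data known. Named genes are up to 12 a direction with the largest called, non-overlapping changes (mean log2 CPM of at least 0, without blood, muscle, pituitary and cerebellar markers). They also include up to 20 called list members, fixed clock and hormone genes, and the largest changes of each list. Others, such as Klf9, Ddit4, Dusp1, Cd8a, Kcnq1 and Ly6d, were picked by no such rule and with values known. Only for some of these is that said where they are named. Some called genes are counted but not reported here by name.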

Additional observations from a re-analysis of the deposited data

Results flagged for a closer look

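The effect of adrenalectomy on Nr1d1 without noise differed between night and day, by 1.58 on the log2 scale (edgeR adjusted p = 0.0047 for the difference). The change was 0.98 at night and -0.60 by day, and the ADX and sham-operated libraries did not overlap at either time. The difference passed in 19 of 19 settings, which included each of the 12 libraries left out in turn, with values of 1.48 to 1.67 and adjusted p from 5.97e-10 to 0.0356.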

How the results depend on the processing

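At night without noise 263 genes were called. The count was 252 with DESeq2's size factors, 224 without a filter, 340 with only the groups compared in the fit, 599 by DESeq2, 1242 by limma voom (657 higher and 585 lower) and 400 without 3 libraries holding pituitary or cerebellar transcripts; it ran from 0 to 196 with 1 library left out. Deviations from the group means showed no positive correlation between same-letter libraries (r of -0.146, -0.155 and -0.0159). Between different letters r ran from -0.0163 to 0.178. With 3 libraries a group these deviations depend on one another, so r cannot settle whether the letters pair the samples. With the replicate block 143 genes were called (118 higher and 25 lower), 123 of them shared. In the block fit the 10 glucocorticoid-induced calls became 2 (1 shared), the 12 B-cell calls 12 (11 shared), the 7 interferon-stimulated calls 6 (3 shared) and the 5 collagen calls 3 (3 shared). By day the 7 calls became 0 with the block, 88 with only the groups compared, 112 by limma voom, 179 by DESeq2, 73 without the 3 libraries and 0 to 30 with 1 library left out. After noise the 0 calls became 3 with the block, 1 by limma voom, 15 by DESeq2, 33 without the 3 libraries and 0 to 162 with 1 left out. The difference night minus day gave 2 with only the groups compared, 72 by limma voom, 11 by DESeq2 and 1 to 2 with 1 left out; sham exposure minus noise gave 4 by DESeq2. The cause of these changes was not tested.

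Over 103 named genes and 13 settings, 1018 of 1326 values kept direction and side of the threshold, 250 no longer passed, 52 newly passed and 6 reversed. None of the reversed genes was called: with 1 library left out Arntl ran from -0.20 to 0.0085, Myh4 from -2.35 to 0.58, Myh1 from -2.36 to 2.79 and Gabra6 from -4.18 to 1.95, and by limma voom Myh1 was 0.32 and Gabra6 -0.71.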
